A study of Rattus norvegicus with 8 samples.

Results

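The cytosolic ribosomal protein genes encode the proteins that, with the ribosomal RNAs, build the ribosome of the cytosol. They were taken from the deposited table by gene name (Rpl or Rps with a number and at most 1 of the letters a, x, l or y, Rplp0 to Rplp2, and Rpsa), without S6 kinases, pseudogenes and unnamed loci. This gave 52 of 10692 rows, of which 30 encode proteins of the large subunit (Rpl) and 22 of the small subunit (Rps). Of 80 genes in the usual list of rat cytosolic ribosomal protein genes, 50 were members and 27 were not analysed here, among them Rplp1, Rplp2, Rpl4, Rpl39, Rps2, Rps19 and Rps26. The other 3, Fau and Rack1 among them, were in the table under names that the rule does not take. Rpl10l and Rps27l, copies of Rpl10 and Rps27, were members outside the usual list.

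The cells were pancreatic islet cells of Sprague Dawley rats at postnatal day 10, dissociated, cultured and transfected by Lipofectamine 2000 in both groups. The control group (4 libraries) received 60 pmol of a control LNA, a locked nucleic acid oligonucleotide. The inhibitor group (4 libraries) received 3 LNA inhibitors at 20 pmol each, directed at tiRNA-5 HisGTG, GluCTC and GluTTC. A tiRNA-5 is the fragment from the 5-prime end of a tRNA cut in its anticodon loop. Whether libraries of 1 group came from separate animals or cultures is not stated in the labels, and p-values therefore measure only the spread between these 8 libraries, which may be technical.

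Ribosomal proteins are needed in nearly equal numbers, and their genes are transcribed at a high rate in most growing cells. Their mRNAs are the classical 5-prime TOP mRNAs, which begin with a C and an unbroken run of pyrimidines, and the mTOR pathway and the RNA-binding protein Larp1 control how well they are translated. Some tRNA fragments have been described as acting on translation, and in human cells a fragment from the 3-prime end of a leucine tRNA, not one targeted here, was described as binding the mRNAs of RPS28 and RPS15. RNA sequencing measures the amount of mRNA and not its translation.

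The start of the transcript is shown for 8 members, since the TOP tract lies there. Each window is 30 bases from the RefSeq promoter table of build GRCr8 (250 bases before and 50 from the start base on), with 15 bases before the annotated start base, 5-prime to 3-prime on the strand of the gene. Capitals start at the C nearest to the annotated start, within 5 bases of it, that at least 4 pyrimidines follow, and run to the next purine. Pyrimidines directly before that C, as in Rps24, Rps15 and Rplp0, stay in lower case. The first 5 genes had low p-values or high levels in the results that follow. Rpl10 and Rps24 are members with a tract whose fold changes lay near or above 0, and Rps6 has no tract by this rule. A pyrimidine run of Rps6 begins more than 5 bases before its annotated start.
Rpl28: ccccgcccctagtgtCTTTCTTTCCgtctc
Rpl31: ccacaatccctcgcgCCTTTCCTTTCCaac
Rps15: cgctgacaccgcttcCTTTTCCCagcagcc
Rplp0: gaccgcaccgcacttCTCTCgccaggcgtc
Rpl23: actaacttcctttctgaCTCTTTCCggacg
Rpl10: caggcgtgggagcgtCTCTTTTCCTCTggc
Rps24: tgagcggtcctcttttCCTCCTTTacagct
Rps6: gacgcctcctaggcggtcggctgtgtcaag
The windows lie at chr1:78083518-78083547 (minus strand) for Rpl28, chr9:49143096-49143125 (plus) for Rpl31, chr7:10068101-10068130 (minus) for Rps15 and chr12:46718376-46718405 (minus) for Rplp0. Those of Rpl23, Rpl10, Rps24 and Rps6 lie at chr10:83272170-83272199 (minus), chrX:157205835-157205864 (plus), chr16:96502-96531 (plus) and chr5:106420526-106420555 (minus).

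The promoter table held 42 of the 52 members, with 43 promoters because Rps27a has 2. Rpl7, Rpl10l, Rpl15, Rpl23a, Rpl27, Rpl30 and Rpl32 are named only. A C followed by at least 4 pyrimidines stood exactly at the start base in 14 member promoters (32.6%), against 2.63% of the 33469 promoters in the table. With the start base allowed to lie within 5 bases, 27 member promoters had a tract (62.8%), against 17.0% of all promoters. Counted from the C nearest to the start, the tracts were 5 to 20 bases long with a median of 7. The ETS family motif CCGGAAG, searched on both strands, was in 12 member promoters (27.9%), in 18.1% of the promoters of genes in the deposited table and in 8.75% of all promoters. The reverse of that motif can share bases with a tract, and all 12 promoters also had a match that lay apart from it. The Sp1 motif GGGCGG was in 62.8% of member promoters, and genes in the deposited table had it about as often (63.7%; 33.1% of all promoters). The YY1 motif AAGATGGC was in 6.98% of member promoters, 5.60% of those of genes in the deposited table and 3.17% of all. The TATA box TATAAA was in 9.30%, 6.27% and 14.2% of these sets. Promoters of mitochondrial ribosomal protein genes had the ETS motif in 34.5% and the YY1 motif in 25.9%, and those of proteasome subunit genes in 34.5% and 20.7%, so both motifs were more frequent there than in the members. A match describes letters in the window and is neither a used site nor a cause.

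**Figure D1:**
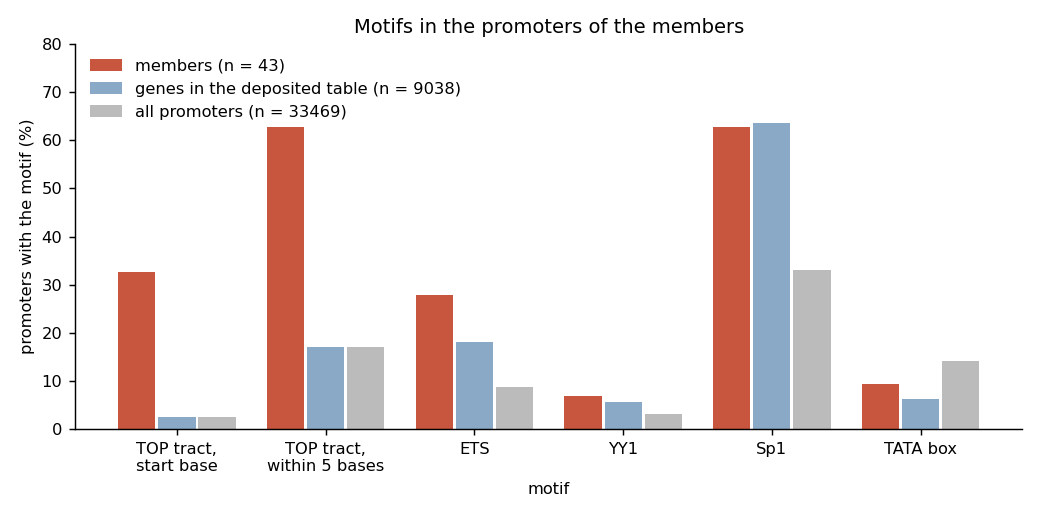
Share of promoters (%) that hold each motif, for the 43 promoters of members, for the 9038 promoters of genes in the deposited table and for all 33469 promoters. The members stand above both other sets for the TOP tract (62.8% within 5 bases, against 17.0% of all promoters), while for Sp1 they match the genes of the deposited table.

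The libraries held 22207682 to 26272809 reads, and 69.7 to 72.6% of these lay in the listed genes. The labelled cell type was checked by markers: 8 of 8 beta cell and 6 of 6 alpha cell markers were in the table, as were 10 of 12 mesenchymal and stellate, 3 of 6 ductal, 3 of 6 endothelial, 1 of 6 immune, 1 of 8 acinar and 0 of 4 erythroid markers. Insulin mRNAs took 9.41% ± 1.02 of reads in the control and 8.73% ± 1.71 in the inhibitor libraries (SD, n = 4 each). Library inhibitor 4 stood apart in its Y-linked genes: Eif2s3y was at 0.257 RPKM and Kdm5d at 0.120 RPKM there, against at least 6.86 and 2.77 RPKM in the other 7 libraries.

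The members differed widely in level. RPKM counts reads relative to the length of the gene model and the size of the library, so a comparison between genes depends on the model lengths used. The mean RPKM over the 8 libraries spanned 565-fold, with a median of 45.0 over the members against 9.96 over all genes. At least 100 RPKM was reached by 16 members, 22 lay between 10 and 100 RPKM and 14 lay below 10 RPKM. The 10 highest members held 67.4% of the summed RPKM, and the same 10 genes were highest in both groups.

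Rpl41, which encodes one of the shortest proteins known, had the highest level: 841, 1031, 1113 and 1132 RPKM in control libraries 1 to 4, and 995, 954, 937 and 1223 RPKM in inhibitor libraries 1 to 4. Rplp0, the base of the stalk that binds translation factors, came next with group means of 522 ± 77.1 (control) and 460 ± 24.6 RPKM (inhibitor; SD, n = 4). Rpl23, a protein of the face between the subunits, followed with 408 ± 46.2 and 427 ± 62.9 RPKM. These 3 genes held 34.2% of the summed RPKM of the members.

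The lowest members were Rpl9 at 1.72 ± 0.363 (control) and 1.92 ± 0.158 RPKM (inhibitor), Rps15a at 2.35 ± 0.289 and 2.56 ± 0.407 RPKM (SD, n = 4), and the X-linked Rps4x at a mean of 1.95 RPKM over the 8 libraries. All 3 encode core proteins of the ribosome, as Rpl41 does. Rps18, Rps9 and Rpl12 also lay near 5 RPKM. Ribosomal protein genes have many near-identical processed copies in mammalian genomes, and how the authors assigned reads that match several copies was not given in the sources used here, so the low levels, and how reads were split between copies, are uncertain. Gene model length also differed, from 246 bases (Rps21) to 5151 bases (Rpl7), and 20 members had a model of over 1000 bases. For the same reads, a longer model gives a lower RPKM, so levels and ranks of members depend on it. Rpl7 had 4876 reads per library on average and 38.7 RPKM, while Rpl14, with a model of 718 bases, had 2939.5 reads and 168 RPKM. The models of Rps18 and Rps9 had 2490 and 2350 bases. Each member had a mean of at least 45.5 reads per library (Rps21), and Rplp0 had 13088.

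**Figure D2:**
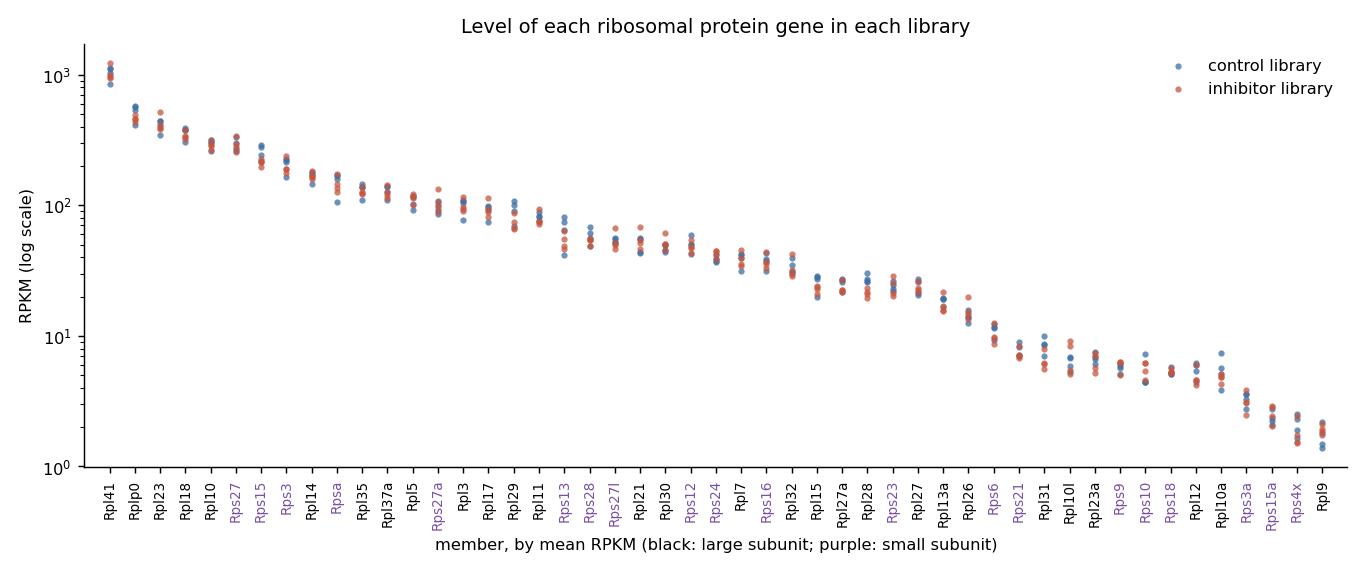
RPKM (log scale) of 49 of the 52 members in each of the 8 libraries, ordered by mean RPKM; blue points are control and red points inhibitor libraries. The levels run from about 1030 RPKM for Rpl41 to 1.82 RPKM for Rpl9, and the groups overlap for every member shown but Rpl28.

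The members held 0.391, 0.489, 0.506 and 0.497% of all reads in control libraries 1 to 4, and 0.440, 0.427, 0.429 and 0.515% in inhibitor libraries 1 to 4. Control 1 was the lowest of all and inhibitor 4 the highest. The group means were 0.471% ± 0.0537 and 0.453% ± 0.0419 (SD, n = 4), a difference smaller than the spread within either group. In bulk RNA, fewer cells of a type that makes much ribosomal protein mRNA and less such mRNA per cell cannot be told apart.

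Summed RPKM gave the same picture, with 5771 ± 660 in the control and 5571 ± 510 in the inhibitor libraries (SD, n = 4). The sum of the large subunit members over that of the small subunit members was 2.63, 2.67, 2.62 and 2.70 in control libraries 1 to 4 and 2.70, 2.77, 2.72 and 2.72 in inhibitor libraries 1 to 4. The means of this ratio were 2.65 ± 0.0362 and 2.73 ± 0.0298 (SD, n = 4), and it was control 4 and inhibitor 1 that made the groups overlap.

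The members moved together between libraries, within as well as between groups. The median member deviated from its own mean over the 8 libraries by -0.20, 0.06, 0.10 and 0.12 (log2 RPKM) in control libraries 1 to 4 and by -0.05, -0.13, -0.08 and 0.17 in inhibitor libraries 1 to 4. Of the 52 members, 3, 35, 42 and 49 lay above their own mean in control libraries 1 to 4. In inhibitor libraries 1 to 4, 17, 7, 6 and 42 did so. Of all genes, 39.4, 55.9, 36.5 and 63.8% lay above their own mean in control libraries 1 to 4. For inhibitor libraries 1 to 4 these shares were 55.3, 55.3, 40.1 and 61.1%. Control 1 held the lowest value of 29 members, and inhibitor 4 the highest value of 26 members. Over all genes, the median deviation stayed between -0.06 and 0.05, and 28.1% of genes had their lowest value in control 1 and 24.1% their highest in inhibitor 4.

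Large and small subunit members had the same pattern, with medians of -0.22 and -0.18 in control 1 and 0.16 and 0.24 in inhibitor 4. The 18 other TOP mRNAs in the table, which encode elongation and initiation factors, Tpt1, Npm1 and others, followed it closely: their medians were -0.23, 0.06, 0.09 and 0.13 in control libraries 1 to 4 and -0.01, -0.12, -0.10 and 0.19 in inhibitor libraries 1 to 4. This is a description over genes of the same libraries. The 71 mitochondrial ribosomal protein genes, whose products translate the mRNAs of mitochondria, deviated by -0.15 in control 1 but by 0.04 in inhibitor 2 and 0.08 in inhibitor 4. The 34 proteasome subunit genes had -0.13 in control 1, 0.01 in inhibitor 2 and 0.20 in inhibitor 4, and the 57 cytosolic translation factors, some of them TOP mRNAs, had -0.12, -0.04 and 0.14. The 528 other genes with a model under 800 bases had -0.13 in control 1, 0.05 in inhibitor 2 and 0.08 in inhibitor 4.

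Markers of other cells also varied between libraries. The 10 mesenchymal and stellate cell markers in the table (of 12) had a median deviation of -0.69 in control 1 and -0.43 in inhibitor 2, and between -0.13 and 0.41 in the other 6 libraries; their summed RPKM was 3032 to 5681 in control and 2906 to 5026 in inhibitor libraries. The 5 proliferation markers had -0.74, 0.27, -0.44 and 0.33 in control libraries 1 to 4 and 0.08, 0.24, -0.28 and 0.44 in inhibitor libraries 1 to 4, so they lay on the same side of 0 as the members in 5 libraries and on the other side in control 3, inhibitor 1 and inhibitor 2. The 8 beta cell markers had 0.32 in inhibitor 2 and -0.31 in inhibitor 4. The 6 alpha cell markers had 0.20, 0.14, 0.13 and 0.02 in control libraries 1 to 4. In inhibitor libraries 1 to 4 they had -0.26, -0.005, -0.08 and -0.10, although their summed RPKM was highest in inhibitor 4 (10140). The 3 delta cell markers in the table (of 4) had 0.45 in control 1 and -0.18 in inhibitor 4, and between -0.10 and 0.15 in the other 6 libraries. The part of these differences, and of the low Y-linked values in inhibitor 4, in the levels of the members was not tested.

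**Figure D3:**
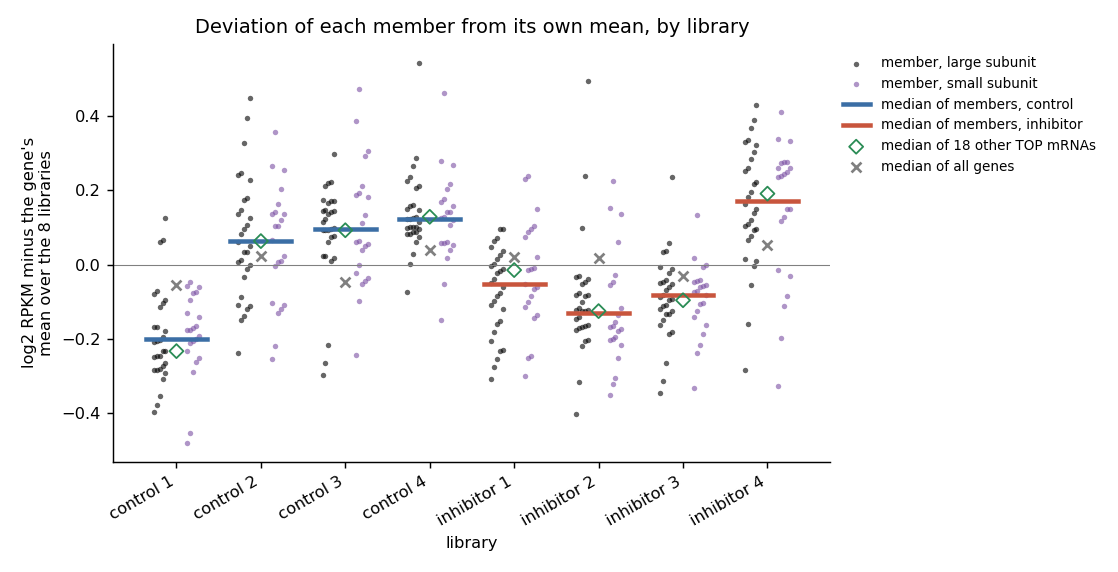
Deviation of each member (log2 RPKM) from its own mean over the 8 libraries, by library; dots are members (black large, purple small subunit), bars the median of the members, diamonds that of 18 other TOP mRNAs and crosses that of all genes. The members' median is lowest in control 1 (-0.20) and highest in inhibitor 4 (0.17), and the other TOP mRNAs lie close to it in each library.

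The comparison of the groups asked whether ribosomal protein mRNAs differ once the 3 fragments are inhibited. Log2(RPKM + 1) was fitted with limma over the 10688 genes with at least 1 RPKM in at least 4 libraries, which all 52 members passed. No member had an adjusted p under 0.05 by limma with Benjamini-Hochberg adjustment, nor did any gene (0% of all genes), and limma-voom on the reads behind the values also called 0. The smallest adjusted p of a member was 0.541. At an unadjusted p under 0.05, 3 members were lower in the inhibitor group (Rpl28, Rpl31 and Rps15) and 0 were higher, and limma-voom gave 3 and 0 as well (3.64% and 5.65% of all genes). Over all genes, 3.46% were lower and 5.52% higher by that threshold, so 3 of 52 lower members is near the background. With median-of-ratios scaling, which turned the balance over all genes to 540 lower (5.05%) and 449 higher (4.20%) from 370 and 590, 4 members were lower and 0 higher.

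Negative log2 fold changes were seen for 35 members and positive ones for 17, against 4886 and 5802 of all genes. The median log2 fold change, inhibitor minus control, was -0.04 for the members (-0.03 large, -0.05 small subunit) and 0.02 for all genes. The groups did not overlap for 1 member that was lower, Rpl28, and for 0 that were higher; over all genes these shares were 1.61% and 3.70%. The median half-width of the unadjusted 95% interval of a member was 0.25. For a typical member, an estimate of less than about that size could not reach an unadjusted p under 0.05. An adjusted p under 0.05 needed more than that: Rpl28 at -0.35 had an adjusted p of 0.541 by limma. For Rpl41 the interval ran from -0.29 to 0.29.

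**Figure D4:**
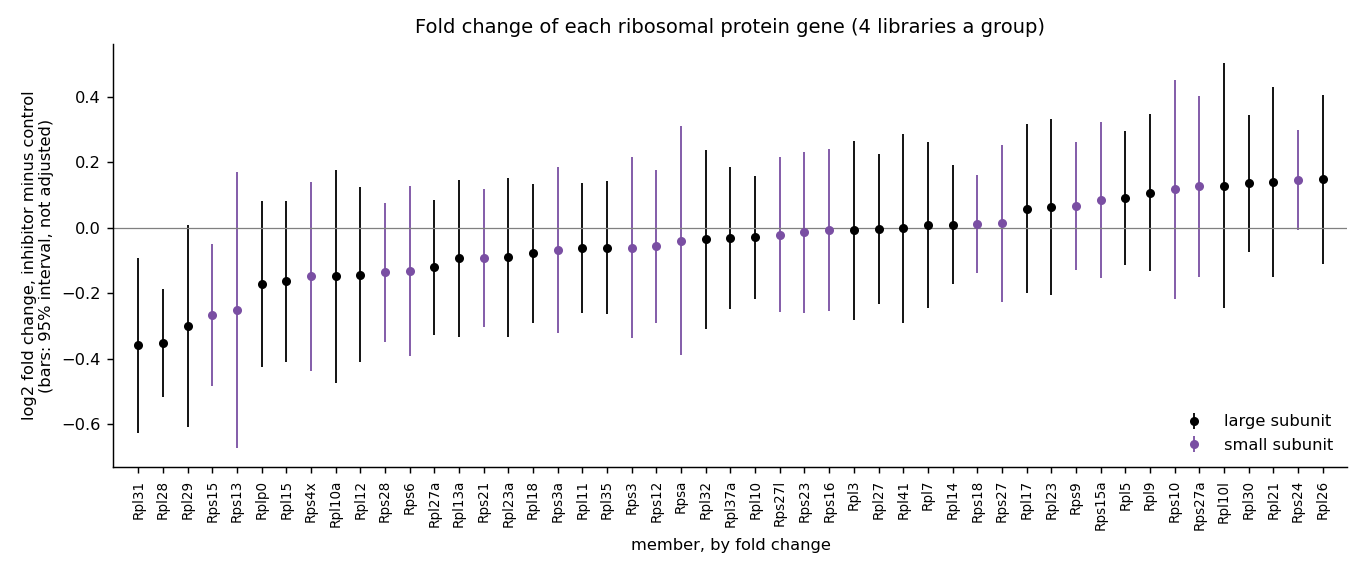
Log2 fold change (inhibitor minus control, log2(RPKM + 1) scale) of 49 of the 52 members with its unadjusted 95% interval, ordered by size; black is the large and purple the small subunit. The interval lies below 0 for Rpl31, Rpl28 and Rps15, and the estimates run from -0.36 to 0.15.

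Rpl28, a large subunit protein found in animals but not in budding yeast, had 26.2, 30.2, 27.1 and 25.8 RPKM in control libraries 1 to 4 and 21.5, 20.8, 19.4 and 23.1 RPKM in inhibitor libraries 1 to 4. Every inhibitor library lay below every control library. The log2 fold change was -0.35 ± 0.073 (SE), with an unadjusted p of 0.000802 by limma and an adjusted p of 0.541. In the authors' deposited table Rpl28 had a p of 2.84e-05 and an adjusted p of 0.0158.

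Rpl31, which sits at the rim of the tunnel through which the new protein leaves, had 7.02, 10.1, 8.53 and 8.62 RPKM in control libraries 1 to 4 and 6.19, 5.58, 6.13 and 7.92 RPKM in inhibitor libraries 1 to 4. Inhibitor 4 lay above control 1, so the groups overlapped by that 1 library each. Its log2 fold change was -0.36 ± 0.12 (SE; limma unadjusted p = 0.0135, adjusted p = 0.541). The other members at the exit tunnel did not share this value: Rpl35 had -0.06, Rpl23a -0.09 and Rpl17, which lines the tunnel, 0.06.

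Rps15, a small subunit protein near the site where codons are read, had 218, 281, 288 and 243 RPKM in control libraries 1 to 4 and 197, 225, 214 and 216 RPKM in inhibitor libraries 1 to 4. Control 1 lay within the range of the inhibitor libraries, and the other 3 controls lay above it. Its log2 fold change was -0.27 ± 0.097 (SE; limma unadjusted p = 0.0206, adjusted p = 0.541). Rps3, which forms part of the mRNA entry channel, had -0.06, Rps23, which reaches into the decoding site, -0.01, and Rps27a, made as a fusion with ubiquitin, 0.13.

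Rpl29 and Rplp0 followed among the members with negative values. Rpl29, a small basic protein of the large subunit, had 69.2, 107, 99.8 and 90.2 RPKM in control libraries 1 to 4 and 65.7, 87.0, 74.8 and 66.8 RPKM in inhibitor libraries 1 to 4 (log2 fold change -0.30 ± 0.14 SE, limma unadjusted p = 0.0545). Control 1 again lay within the range of the inhibitor libraries. Rplp0 had 410, 578, 567 and 533 RPKM in control libraries 1 to 4 and 430, 460, 458 and 490 RPKM in inhibitor libraries 1 to 4 (-0.17 ± 0.11 SE, limma unadjusted p = 0.163). Here control 1 was the lowest of all 8 libraries and the other 3 controls were the highest. Rpl12, which binds beside Rplp0 at the base of the stalk, had -0.14.

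Rps28 and Rpsa, near the channel where mRNA leaves the small subunit, had log2 fold changes of -0.14 ± 0.094 and -0.04 ± 0.16 (SE).

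**Figure D5:**
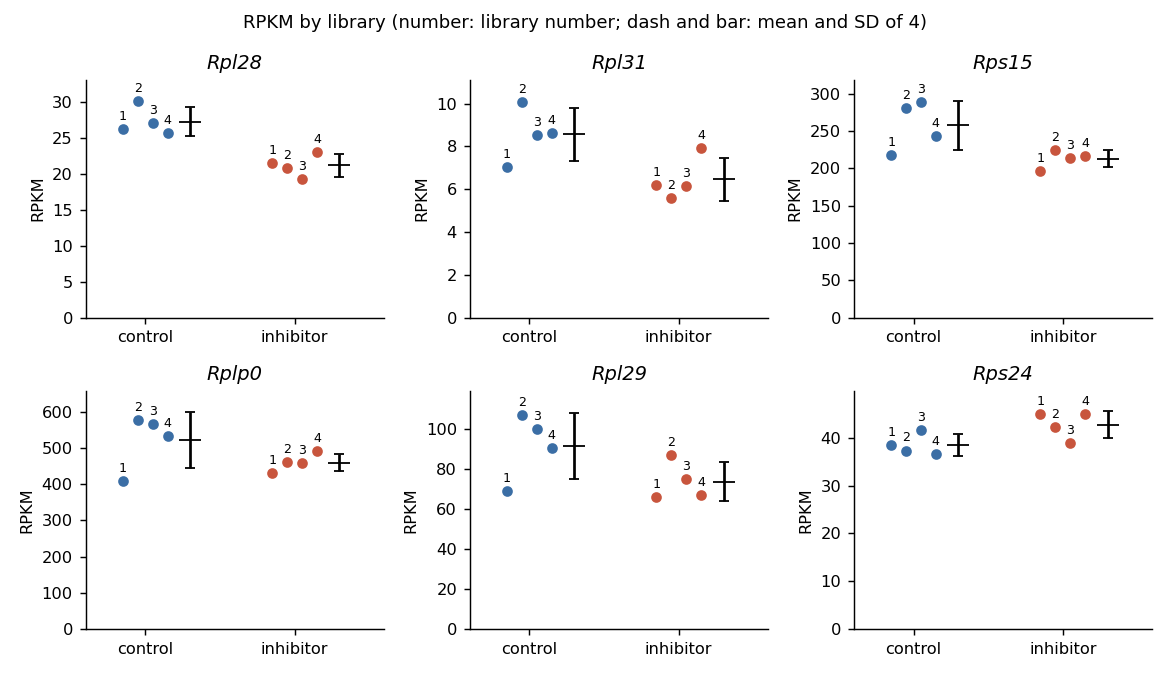
RPKM of 6 members in each library (numbers give the library number; dash and bar give the mean and SD of 4 libraries; axes start at 0). Of these 6, the groups are apart for Rpl28 only. In Rpl31, Rps15, Rplp0 and Rpl29 control 1 lies below the other 3 controls.

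Of the members with positive values, the lowest p was that of Rps24, a small subunit protein whose gene is mutated in some people with Diamond-Blackfan anaemia. It had 38.5, 37.3, 41.7 and 36.5 RPKM in control libraries 1 to 4 and 44.9, 42.2, 38.9 and 44.9 RPKM in inhibitor libraries 1 to 4 (log2 fold change 0.15 ± 0.068 SE, limma unadjusted p = 0.0584). Control 3 and inhibitor 3 made the groups overlap. Rpl30, Rpl26, Rpl21, Rps27a and Rpl9 had log2 fold changes of 0.14, 0.15, 0.14, 0.13 and 0.11, with unadjusted p-values between 0.178 and 0.345. In Rps24, Rpl30, Rpl26, Rpl21 and Rps27a the highest value of the 8 libraries was that of inhibitor 4, and in Rpl9 that of control 4.

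Rpl5 and Rpl11 carry the 5S RNA into the ribosome and, when not assembled, bind Mdm2 and so stabilise p53. Their log2 fold changes were 0.09 ± 0.092 and -0.06 ± 0.089 (SE), and of 14 genes of nucleolar stress and p53 response 0 had an unadjusted p under 0.05. Rpl10, which joins the large subunit late in its assembly, had -0.03 ± 0.084, and Rpl3, close to the site of peptide bond formation, had -0.01 ± 0.12. Rps6, the protein that S6 kinases phosphorylate, had 11.2 ± 1.26 RPKM in the control and 10.2 ± 1.70 RPKM in the inhibitor libraries (SD, n = 4), and the fit put its difference at -0.13 ± 0.12 (log2, SE).

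For 2 pairs of paralogs, the group means differed by less than the larger SD of the groups. Rps27 had 290 ± 32.3 and 293 ± 35.7 RPKM and its copy Rps27l, a p53 target in human cells, 53.6 ± 2.25 and 53.3 ± 9.36 RPKM in control and inhibitor libraries (SD, n = 4). Rpl10 stood at 296 ± 24.5 and 289 ± 20.1 RPKM. Rpl10l, the copy that replaces Rpl10 in mouse male germ cells, stood at 6.19 ± 0.761 and 7.02 ± 2.02 RPKM, and whether its reads came from Rpl10 cannot be told from the table.

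Rps3 and Rps10, which are tagged with ubiquitin when ribosomes collide, had log2 fold changes of -0.06 and 0.12. Rps10 had 4.43, 4.43, 4.45 and 7.26 RPKM in control libraries 1 to 4 and 6.22, 6.17, 5.34 and 4.60 RPKM in inhibitor libraries 1 to 4. Its highest value was thus that of control 4, and all inhibitor libraries lay between that library and the other 3 controls.

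The 25 members not named by the rule for named genes had mean levels of 3.21 to 352 RPKM and log2 fold changes of -0.25 (Rps13) to 0.13 (Rpl10l), 19 of them negative and 6 positive. The lowest unadjusted limma p among them was 0.169 (Rpl15). Rps13 had the widest interval of all members, with a half-width of 0.42. It had 41.8, 74.6, 80.7 and 65.0 RPKM in control libraries 1 to 4 and 48.9, 64.0, 55.4 and 46.5 RPKM in inhibitor libraries 1 to 4, so that control 1 was again below all inhibitor libraries. Rps18, at the head of the small subunit, had the narrowest interval, with a half-width of 0.15: it had 5.12, 5.72, 5.24 and 5.14 RPKM in control libraries 1 to 4 and 5.66, 5.16, 5.32 and 5.28 RPKM in inhibitor libraries 1 to 4. Its log2 fold change was 0.01, and although control 1 was its lowest library by a small margin, inhibitor 4 lay in the middle of its values.

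Members with a TOP tract near the start (27) had a median log2 fold change of -0.06, with 17 negative, and those without (15) one of -0.02, with 11 negative. This split depends on the annotated start base. Rpl5, Rpl13a, Rpl21, Rps3, Rps6, Rps15a and Rpsa count as without, though a pyrimidine run begins more than 5 bases before their annotated start. Whether the split separates TOP mRNAs from others was not tested. The genes around the ribosome had no adjusted call by limma either. Of 8 listed ribosomal protein-like genes that the rule leaves out, 3 had negative and 5 positive values and 0 an unadjusted p under 0.05. Rps4y2, also left out by the rule, was not among these 8. It had 7.74 to 11.7 RPKM in control and 5.55 to 12.8 RPKM in inhibitor libraries. Of the 18 other TOP mRNAs, 10 had negative and 8 positive log2 fold changes and 0 had an unadjusted p under 0.05. Eef2, the factor that moves the ribosome along the mRNA, had the lowest, with -0.18 ± 0.082 (SE, limma unadjusted p = 0.0573). Of 58 ribosome biogenesis genes, 3 were lower and 2 higher at an unadjusted p under 0.05. The lower ones were Dkc1, the pseudouridine synthase of ribosomal RNA (-0.37 ± 0.14 SE), Nop53 and Rrp9, and the higher ones were Nmd3, the export adaptor of the large subunit (0.19 ± 0.062 SE), and Wdr75. Of 10 transcription factors of these genes, Gabpa, a subunit of an ETS family factor, was higher at that threshold (0.18 ± 0.079 SE, limma unadjusted p = 0.0473). Of 14 genes of ribosome quality control, Zfp598, the ubiquitin ligase for collided ribosomes, was lower (-0.22 ± 0.082 SE, limma unadjusted p = 0.0237). Of 18 genes of the mTOR pathway and TOP mRNA control, 0 passed, and the lowest unadjusted p-values by limma were 0.0798 (Akt1s1) and 0.107 (Mtor).

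Other large assemblies served for comparison. The 71 mitochondrial ribosomal protein genes had a median log2 fold change of 0.04, with 1 lower and 3 higher at an unadjusted p under 0.05. The 34 proteasome subunit genes had a median of 0.05 with 1 lower and 0 higher, and the 57 cytosolic translation factors 0.01 with 0 lower and 2 higher. Genes outside the members with models under 800 bases had a median of 0.01. No difference between the members and these sets was tested.

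The counts turned on control 1 and inhibitor 4. Without control 1, 13 members were lower at an unadjusted p under 0.05 and 13 did not overlap between the groups, against 6.32% and 4.88% of all genes lower by these criteria. Without inhibitor 4, 6 members were lower at that threshold, against 3.14% of all genes. Without both, 27 members were lower and 30 did not overlap, against 9.82% and 10.6% of all genes, and the median log2 fold change was -0.18. Control 1 was the lowest control library and inhibitor 4 the highest inhibitor library for most members, so leaving them out moves the groups apart by construction, and these values describe the other 6 libraries. With weights that count libraries of larger spread less, 15 of the 52 members were lower and 1 higher, against 13.5% and 12.8% of all genes. Control 1 and inhibitor 4 had the lowest of these weights, 0.33 and 0.59. No member had an adjusted p under 0.05 by limma under any of these.

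When each library was divided by the median of its members, a scaling chosen after seeing the data that removes what the members share by construction, Rpl28 and Rpl31 remained lower at an unadjusted p under 0.05 by limma and 0 members were higher, against 0.777% of all genes lower and 4.67% higher on this scale. The groups then did not overlap for 3 members that were lower, Rpl28 and Rpl31 among them, and for 0 that were higher, against 0.187% and 2.99% of all genes. Since the scaling used the members, these shares are not an independent background for them. Relative to the median member, Rpl31 was at 0.13, 0.39, 0.11 and 0.10 (log2) in control libraries 1 to 4 and at -0.20, -0.27, -0.18 and -0.07 in inhibitor libraries 1 to 4.

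By the authors' deposited table, 4 members had a p under 0.05, Rpl28, Rpl31, Rps15 and Rpl29, all with a fold below 1. Over all genes, 801 of 10692 had such a p in either direction (7.49%), and 438 of these were lower. A negative log2 fold change stood for 39 members in the authors' deposited table. The same count over all genes was not taken, so the 39 is not read as a result about the members. In the main limma fit, 35 members and 4886 of 10688 genes were negative. With median-of-ratios scaling these were 39 members and 5387 genes. The deposited log2 values are not the log2 of the deposited fold: Rps27 had a fold of 1.01 and a log2 value of -0.01.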

How the data were processed

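The authors deposited RPKM values, 1 column per library, per the file headers, with their own fold (a ratio of group means), log2 fold change and p-values for each gene. Build rn6 and the tools HISAT2 2.1.0, HTSeq, STAR 2.5.3a and RSEM 1.3.0 are listed, without roles, per the submitters' processing notes. The annotation, the strand setting and the authors' test are not given in the sources used here. Values of a gene are whole multiples of that of 1 read, which gave whole reads for 10692 of 10692 genes (relative tolerance 1e-09), whole model lengths and whole library totals of 22207682 to 26272809. Listed genes had a median of 544 to 665 reads per library. Intervals cover spread between libraries.

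Log2(RPKM + 1) of genes with at least 1 RPKM in 4 libraries went into limma 3.58.1 (R 4.3.3), with the group as the only term and with an intensity trend, two-sided, with Benjamini-Hochberg adjustment over 10688 genes. The fold change understates that of low genes. Shares, counts and medians over members are descriptions without a test. The script was tested on simulated data. Named members are, per direction, the 6 of smallest p, the 3 highest and 3 lowest by RPKM, and those of set roles; others were named from role lists or as extremes, after their values were seen. The values of a few genes are not reported here. Members and lists were chosen with earlier results of these data known. Alternatives were other pseudocounts, filters, scalings, limma-voom, library weights, a replicate block and left-out libraries. Of the per-sample columns, 0 were unused.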

Additional observations from a re-analysis of the deposited data

Results flagged for a closer look

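In a group of 4 libraries, a value was picked out when its gap to the nearest of the others, divided by the range of the group, was above Dixon's 95% critical value. This was computed for 58 groups (26 named members and 3 summary values, 2 groups each) and picked out 4, where chance picks out about 1 in 20. The same libraries recur. Control 1 stood below the other controls in Rps3 (165 RPKM, the others 216 to 226) and in the share of reads in the members (0.391%, the others 0.489 to 0.506%). Inhibitor 4 stood above the other inhibitor libraries in the share of reads (0.515%, the others 0.427 to 0.440%) and in the summed RPKM of the members (6331, the others 5270 to 5398). The values are not independent, since the members of 1 library share it.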

How the results depend on the processing

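No member had an adjusted p under 0.05 by limma under any alternative run, and the lowest for a named member was 0.0959 (library weights); at an unadjusted p, counts were as follows. The 3 members lower at an unadjusted p under 0.05 became 15 with library weights (1 higher). Of all genes, 13.5% were lower and 12.8% higher with these weights. The 3 members became 27 without control 1 and inhibitor 4 (9.82% of all genes) and 4 with the replicate block (467 of 10688 genes). With single libraries left out, 2 to 13 members were lower and 0 to 1 higher, against 156 to 675 and 266 to 814 of all genes. Whether the numbers 1 to 4 pair the libraries is unknown: the labels do not say so, and deviations of same-numbered libraries correlated at 0.14, -0.27, 0.32 and 0.45, so the replicate block served as an alternative only. The 1 member whose groups did not overlap became 2 with median-of-ratios scaling, against 263 of 10688 genes lower. It became 3 relative to the members' median (0.187% of all genes) and 30 without control 1 and inhibitor 4 (10.6%). With 1 library left out, 1 to 13 members were lower and 0 to 2 higher, against 189 to 528 and 444 to 953 of all genes. The median log2 fold change was -0.18 without both libraries, for all members and for the large and the small subunit alike, and ran from -0.11 (without control 1) to 0.0025 (without inhibitor 2). The share of member promoters with a tract was 32.6% in place of 62.8% when the start base was taken exactly as annotated.

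Of 26 named members, 14 kept the sign of their log2 fold change under all alternatives. Without control 1 and inhibitor 4 the sign turned for Rpl26 (-0.015), Rpl21 (-0.028), Rps27a (-0.044), Rpl23 (-0.11), Rpl5 (-0.0097), Rpl17 (-0.12) and Rps27 (-0.12). Relative to the members' median it turned for Rpl41 (0.042), Rpl3 (0.036), Rpl10 (0.014), Rpsa (0.0030) and Rps27l (0.022). It also turned for Rpl17 with library weights (-0.0089) and for Rps27 with median-of-ratios scaling (-0.012). With single libraries left out the ranges were -0.096 to 0.047 for Rpl41, -0.032 to 0.12 for Rpl23, -0.13 to 0.043 for Rpl3, -0.090 to 0.0093 for Rpl10, -0.032 to 0.12 for Rpl17, -0.20 to 0.025 for Rpsa, -0.063 to 0.078 for Rps27 and -0.13 to 0.046 for Rps27l. Apart from the left-out libraries, the cause was not tested. Depth limits low members most: Rps21 had 45.5 reads per library on average.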
